A study of Caligus rogercresseyi with 6 samples.

Results

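Among 44089 transcript contigs of the sea louse Caligus rogercresseyi, 26 had nearly the same share of the counts in eggs, in both larval stages sampled and in adults of either sex. They were chosen by their own values: a contig had to reach 50 counts per 1000000 of the library total (CPM) in all 5 libraries, and its highest CPM could be at most 1.5 times its lowest. Of the 44089 contigs listed, 38733 had a count in any file and 938 reached 50 CPM in all 5 libraries. The 26 were 2.77% of those 938. They are called the even-CPM contigs here, because the evenness held for CPM and mostly not for other scalings of the same counts.

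Each library was RNA from a pool of wild-type whole animals or eggs, and each group had 1 library. The lice were from farmed Atlantic salmon, which need not mean that eggs and copepodids were taken off the fish. The number of animals in a pool is not stated. The groups were egg, copepodid (the free-swimming larva that infects the fish), chalimus (the larva fixed to it), adult female, adult male and adults whose sex the labels do not give. With 1 library per group no difference between stages or sexes can be tested, and how far pools of animals vary is not known. Among the 5 libraries used by the rule, copepodid had the lowest total, 78380827 counts, and adult female the highest, 149426248. The total of the sixth file, 279644605, is that of female plus male, so it was kept apart as a recount of the adults. The files give identifiers without gene names or sequences, so no function is stated for any contig and none of the gene lists by name could be counted.

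Sea lice hatch from egg strings carried by the female, pass through free-swimming larvae to the infective copepodid, attach to a fish as chalimi and become mobile adults that feed on its skin and mucus. Feeding, moulting, egg production and sperm production change which transcripts dominate a whole animal. RNA-seq counts are shares of a total, so a transcript can keep its share while its amount per animal changes. Transcripts whose level is even across stages and sexes are sought as internal references for quantitative PCR in such species, where ribosomal protein, tubulin and elongation factor transcripts are common candidates.

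Together the 26 contigs took a narrow share of every library. They held 0.571% of the counts in egg, 0.522% in copepodid, 0.522% in chalimus, 0.557% in adult female and 0.562% in adult male. Wilson 95% intervals were 0.570% to 0.573% in egg and 0.520% to 0.524% in copepodid, and these intervals cover counting error only. The 938 contigs as a whole varied more, from 32.4% of the adult female counts to 63.0% of the copepodid counts. The rule itself fixes most of this contrast. In whole animals, fewer cells of a type and less RNA per cell cannot be told apart.

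The levels of the 26 contigs covered a wide range even though each was even across libraries. Mean CPM over the 5 libraries ran from 59.5 to 1143, with a median of 118. In 10 contigs the mean was under 100 CPM, in 11 it lay between 100 and 200 CPM, and in 5 it was over 200 CPM. The median of 118 lay below the 182 CPM of all 938 contigs and far below the 367 CPM of the 312 contigs that varied over 4-fold. It was close to the 119 CPM of the 132 contigs with a ratio over 1.5 and up to 2, so it was not particular to the 26. The rule sets part of this contrast, since with at least 50 CPM in every library a wider ratio needs a higher maximum.

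**Figure D1:**
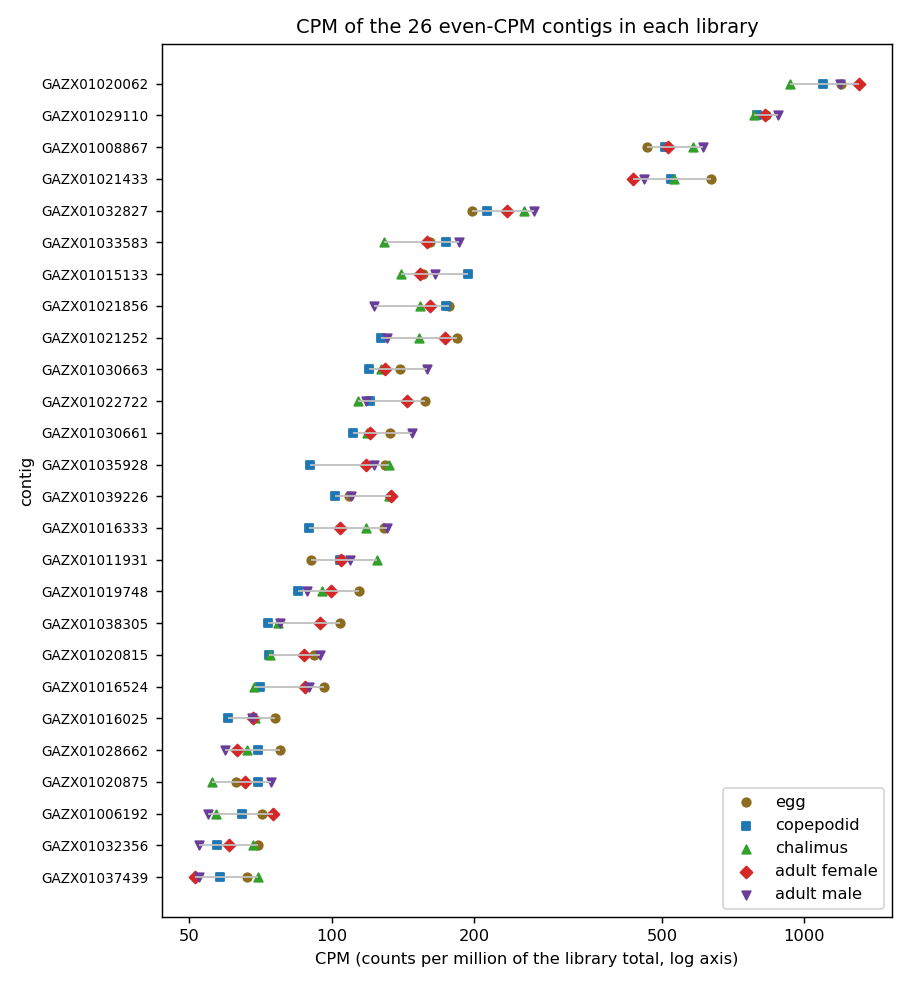
CPM of each of the 26 even-CPM contigs in the 5 libraries, on a log axis, with 1 point per library and a grey line from the lowest to the highest value. The contigs are ordered by mean CPM, from 59.5 for GAZX01037439 at the bottom to 1143 for GAZX01020062 at the top.

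The most even contig was GAZX01029110, of 3734 nt. It had 828 CPM in egg, 795 in copepodid, 782 in chalimus, 824 in adult female and 878 in adult male. Its highest CPM was 1.12 times its lowest, with a 95% counting interval of 1.11 to 1.13, and its mean was 821 ± 37.0 CPM (SD over the 5 libraries). It stood apart from the rest of the 26, since the next contig had a ratio of 1.26. GAZX01029110 was also the second most abundant of the 26 by CPM, at percentile 87.1 of the mean CPM of the 938 contigs.

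GAZX01016025, the next most even at 747 nt, had 76.0 CPM in egg, 60.4 in copepodid, 68.8 in chalimus, 68.1 in adult female and 67.7 in adult male. Chalimus and both adults were almost level, and egg and copepodid set its ratio of 1.26. Without the egg library its ratio was 1.14, and without copepodid 1.12. GAZX01020815 (2020 nt) had 91.7 CPM in egg, 73.7 in copepodid, 73.9 in chalimus, 87.4 in adult female and 94.6 in adult male. GAZX01020815 thus had a pair of low larval values below 3 higher ones, with a ratio of 1.28 (1.24 to 1.32). Only these 3 contigs stayed within 1.3-fold.

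GAZX01028662 (2315 nt) had 77.7 CPM in egg, 69.8 in copepodid, 66.1 in chalimus, 63.2 in adult female and 59.4 in adult male, with a lower value at each later stage and adult male below adult female. GAZX01008867 (1785 nt) had 464 CPM in egg, 508 in copepodid, 581 in chalimus, 515 in adult female and 611 in adult male. Its low end was egg and its high end adult male, the opposite of GAZX01028662, and both had ratios close to 1.3 (1.31 and 1.32). GAZX01039226 (2320 nt) had 109 CPM in egg, 102 in copepodid, 132 in chalimus, 134 in adult female and 110.0 in adult male, so chalimus and female were the high pair.

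The most abundant of the 26, by CPM and per length, was GAZX01020062 (1811 nt). It had 1193 CPM in egg, 1092 in copepodid, 933 in chalimus, 1306 in adult female and 1189 in adult male, with a ratio of 1.40 (1.39 to 1.41). Chalimus was the low library, and the other 4 lay within 1.2-fold. On the scale of the deposited FPKM, which divides by contig length, its mean was 629 FPKM, followed by GAZX01008867 at 299 FPKM, GAZX01021433 at 271 FPKM and GAZX01035928 at 259.8 FPKM. The last of these, at 455 nt the shortest of the 26, ranked 13th by mean CPM.

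GAZX01021433 (1896 nt) had 635 CPM in egg, 523 in copepodid, 529 in chalimus, 434 in adult female and 457 in adult male. Egg was high, both larvae were level, and its ratio was 1.46 (1.45 to 1.48). GAZX01032827 (2786 nt) ran the other way, at 198 CPM in egg, 213 in copepodid, 255 in chalimus, 235 in adult female and 268 in adult male, with a ratio of 1.35. GAZX01033583 (1434 nt) had 162 CPM in egg, 174 in copepodid, 129 in chalimus, 159 in adult female and 186 in adult male, and was the contig lowest in chalimus relative to its own mean, at 79.7%.

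**Figure D2:**
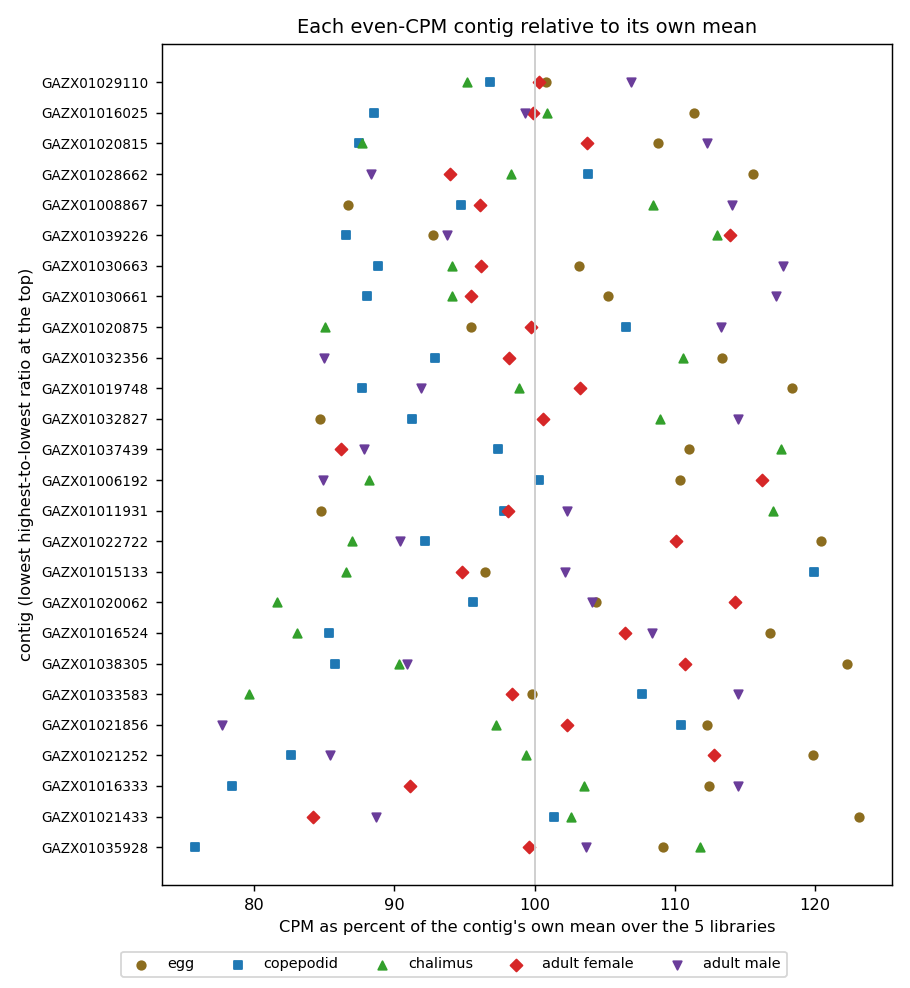
CPM of each even-CPM contig in the 5 libraries as a percentage of the contig's own mean over them, with the most even contig at the top. Points for GAZX01029110 lie closest together, and egg (brown circles) lies right of 100% for most contigs while copepodid (blue squares) lies left of it.

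Relative to each contig's own mean, 65 of the 130 values lay within 10% and 123 lay within 20%. The coefficient of variation over the 5 libraries had a median of 12.4% and ran from 4.51% to 16.4%. The extremes in single libraries were small by construction. In egg the values ran from 84.7% (GAZX01032827) to 123% (GAZX01021433) of the own mean, in copepodid from 75.8% (GAZX01035928) to 119.9% (GAZX01015133), in chalimus from 79.7% to 118% (GAZX01037439), in adult female from 84.2% (GAZX01021433) to 116% (GAZX01006192) and in adult male from 77.7% (GAZX01021856) to 118% (GAZX01030663).

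The residual differences in CPM were uneven among libraries, and this turned round with the other scalings. The highest CPM was in egg for 10 contigs, in adult male for 9, in chalimus and adult female for 3 each, and in copepodid for 1. The lowest was in copepodid for 10, in chalimus for 7, in adult male for 4, in egg for 3 and in adult female for 2. The geometric mean of the relative levels was 106% in egg, 93.5% in copepodid, 97.1% in chalimus, 100.7% in adult female and 99.6% in adult male. Among all 938 contigs, egg was also the library that most often held the highest CPM, in 38.5% of the 26 and 42.3% of the 938. Adult male held the lowest CPM in 15.4% of the 26 and 38.5% of the 938, where it was the most frequent low library. In the same order, the highest was in adult male for 34.6% and 18.7%, and in copepodid for 3.85% and 15.1%. For chalimus it was 11.5% and 5.76%, and for adult female 11.5% and 18.1%. The lowest was in copepodid for 38.5% and 28.0%, and in chalimus for 26.9% and 6.50%. For egg it was 11.5% and 7.89%, and for adult female 7.69% and 19.1%.

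Among the 10 contigs highest in egg, GAZX01021252 (6027 nt, the longest of the 26) had 184 CPM in egg, 127 in copepodid, 153 in chalimus, 173 in adult female and 131 in adult male. GAZX01038305, the next longest at 5015 nt, had 104 CPM in egg, 73.2 in copepodid, 77.1 in chalimus, 94.5 in adult female and 77.6 in adult male. In both, egg and adult female were the high libraries and copepodid the lowest, with adult male next lowest in GAZX01021252 and chalimus next lowest in GAZX01038305. GAZX01022722 (1802 nt) shared the pair of high libraries, with 158 CPM in egg, 121 in copepodid, 114 in chalimus, 144 in adult female and 118 in adult male. GAZX01016524 (1059 nt) had 96.3 CPM in egg, 70.4 in copepodid, 68.5 in chalimus, 87.7 in adult female and 89.3 in adult male, which sets both larvae below egg and adults.

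GAZX01019748 (2371 nt) had 114 CPM in egg, 84.7 in copepodid, 95.5 in chalimus, 99.7 in adult female and 88.7 in adult male, with egg alone above 100 CPM. GAZX01032356 (3026 nt) had 69.9 CPM in egg, 57.3 in copepodid, 68.2 in chalimus, 60.6 in adult female and 52.4 in adult male. Egg and chalimus were its high libraries. GAZX01021856 (1951 nt) had 177 CPM in egg, 174 in copepodid, 153 in chalimus, 162 in adult female and 123 in adult male, and without the male library its ratio was 1.15 in place of 1.44. One library thus made most of its spread.

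Of the 9 contigs highest in adult male, GAZX01016333 (625 nt) had 129 CPM in egg, 89.7 in copepodid, 118 in chalimus, 104 in adult female and 131 in adult male. GAZX01020875 (2936 nt) had 62.7 CPM in egg, 69.9 in copepodid, 55.9 in chalimus, 65.5 in adult female and 74.4 in adult male, with chalimus as its low library. The short contigs GAZX01016333 and GAZX01035928 shared a low copepodid value. GAZX01035928 had 129 CPM in egg, 89.8 in copepodid, 132 in chalimus, 118 in adult female and 123 in adult male. Without copepodid its ratio was 1.12, so it was as even as GAZX01029110 in the other 4 libraries.

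GAZX01015133 (978 nt) was the 1 contig with its highest CPM in copepodid, at 156 CPM in egg, 194 in copepodid, 140.0 in chalimus, 153 in adult female and 165 in adult male. GAZX01037439 (1340 nt), the least abundant of the 26, had 66.1 CPM in egg, 58.0 in copepodid, 70.0 in chalimus, 51.3 in adult female and 52.3 in adult male, and GAZX01006192 (1074 nt) had 71.2, 64.7, 56.9, 75 and 54.8 CPM in the same order of libraries. The first was low in both adults. The second was high in adult female and low in adult male. GAZX01011931 (1781 nt) had 90.4 CPM in egg, 104 in copepodid, 125 in chalimus, 105 in adult female and 109 in adult male, with egg and chalimus at its ends.

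Counting error was small next to these differences. The counts of the 26 contigs ran from 4490 to 195097 per library, and the interval of the highest-to-lowest ratio reached at most 3.52% of the ratio to either side. In 24 contigs the interval lay wholly under 1.5. In 2, GAZX01016333 (1.42 to 1.502) and GAZX01035928 (1.43 to 1.52), it reached past 1.5. Just inside the limit were GAZX01021433 at 1.46 and GAZX01035928 at 1.47. Just outside were GAZX01030665 (101 to 152 CPM) and GAZX01032219 (95.5 to 143 CPM), with ratios of 1.501 and 1.502, and 7 of the other contigs had an interval reaching down to 1.5. At the other limit GAZX01037439 and GAZX01032356 passed with lowest values of 51.3 and 52.4 CPM, while GAZX01010064 (46.6 CPM) and GAZX01019474 (47.1 CPM) missed it. GAZX01019474, with a ratio of 1.253, was more even than all but 1 of the 26.

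**Figure D3:**
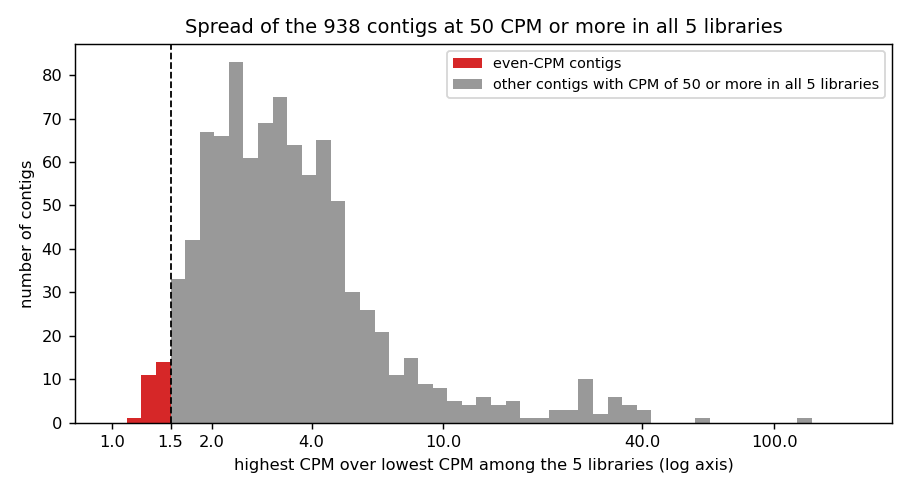
Number of contigs by the ratio of highest to lowest CPM among the 5 libraries, on a log axis, for the 938 contigs at 50 CPM or more in all 5. The 26 even-CPM contigs (red) form the lower tail, left of the dashed line at 1.5, and the 938 have a median ratio of 3.13.

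Among the 938 contigs the 26 were the lower tail of a continuous spread and no separate group. A further 132 contigs had a ratio over 1.5 and up to 2, 468 over 2 and up to 4, and 312 over 4. The median ratio was 1.37 for the 26 and 3.13 for the 938. Which library was counted mattered for membership. When the same rule was applied to 4 libraries, all 26 had to remain, since leaving out a library cannot raise a ratio or lower a minimum. The list could thus only stay or grow, and the libraries differed in how many contigs joined: 150 contigs passed without copepodid (11.5% of 1305), 85 without adult female (7.94% of 1070), 68 without adult male (6.35% of 1071), 67 without egg (6.84% of 979) and 45 without chalimus (4.73% of 951). Of the 150, 72 were under 50 CPM in copepodid.

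The choice of scale decided most of the list. Trimmed mean of M-values (TMM) scaling levels a trimmed mean of log ratios between libraries, and not the library total. That mean was taken over the whole list of contigs and not over the 938. The TMM factor was 0.665 for copepodid, and in the other libraries it was 1.31 (egg), 1.10 (chalimus), 1.08 (adult female) and 0.971 (adult male). The top 10 contigs of copepodid took 25.7% of its counts, against 8.37% to 16.3% in the other 4 libraries, and contigs counted in copepodid alone held 4.46%. With totals that leave out the 10 most abundant contigs of any library 48 contigs passed the rule, 22 of the 26 among them, and with totals that leave out the contigs of copepodid alone 34 passed, all 26 among them. Across the 938 contigs, copepodid over egg had a median log2 ratio of -0.49 with CPM, 0.48 with TMM and 0.62 with DESeq2 size factors. None of these scales thus set the median of the 938 level between copepodid and egg.

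With TMM scaling the highest level was in copepodid for 25 of the 26 contigs, and with DESeq2 size factors for 22. Egg held the highest level of 0 contigs on either scale, and the lowest of 12 with TMM and 22 with DESeq2. Copepodid was above egg in all 26 on either scale, against 72.9% of the 938 with TMM and 79.4% with DESeq2. The scaling factors fix this order for any contig within 1.5-fold by CPM. The TMM ratio of highest to lowest ran from 1.36 to 2.44 with a median of 1.81, and 4 of the 26 still passed both limits. With DESeq2 size factors the ratio ran from 1.49 to 2.69 and 1 passed. The rule passed 51 contigs with TMM (4.95% of 1031) and 40 with DESeq2 (3.88% of 1032), of which 27 were shared. The single contig within 1.5-fold on all 3 scales was GAZX01021252, with ratios of 1.45 by CPM, 1.41 by TMM and 1.49 by DESeq2. On the TMM scale it had 141 in egg, 191 in copepodid, 139 in chalimus, 161 in adult female and 135 in adult male.

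Besides GAZX01021252, 3 contigs passed with TMM, namely GAZX01035928 (1.36), GAZX01016333 (1.39) and GAZX01019748 (1.47). All 4 contigs that passed with TMM were among the 10 contigs lowest in copepodid. GAZX01029110 lost its place on this scale. Its TMM-scaled level was 634 in egg, 1195 in copepodid, 709.6 in chalimus, 766 in adult female and 904 in adult male, and its ratio was 1.88 in place of 1.12. GAZX01015133, with its copepodid maximum, had the widest TMM ratio, 2.44. The reverse case, a contig outside the 26 and picked for its values, was GAZX01037589 (2088 nt), the most even with TMM at 1.12. It had 108 CPM in egg, 55.5 in copepodid, 94.1 in chalimus, 98.7 in adult female and 79.3 in adult male, a CPM ratio of 1.95.

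**Figure D4:**
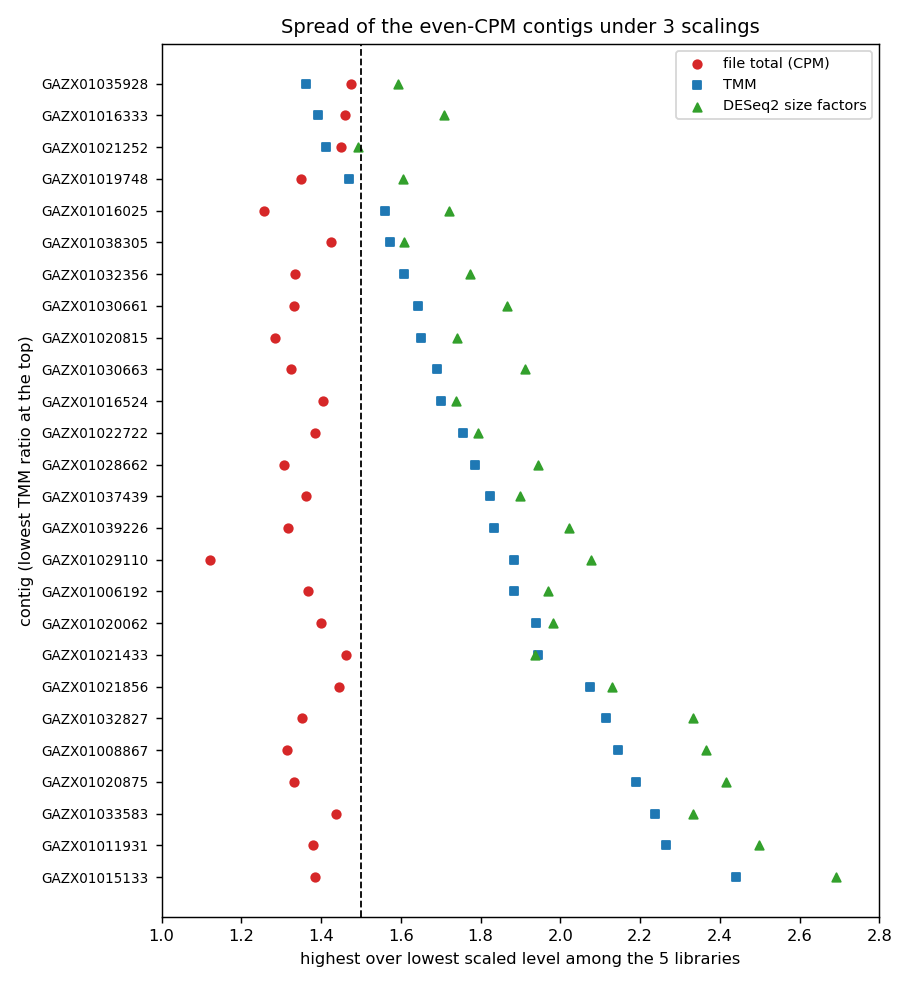
Ratio of the highest to the lowest level among the 5 libraries for each even-CPM contig, with counts scaled by the library total (CPM, red circles), TMM (blue squares) or DESeq2 size factors (green triangles). All red points lie left of the dashed line at 1.5 by the rule, 4 blue squares do, and 1 green triangle does.

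Pairs of libraries showed where the scale mattered. For copepodid over egg the 26 contigs had a median log2 ratio of -0.20 with CPM and 0.77 with TMM, and with TMM 20 of the 26 were over 1.5-fold higher and 0 lower in copepodid, against 45.4% and 9.70% of the 938. For chalimus over copepodid the medians were 0.08 and -0.65, and with TMM 15 of the 26 were over 1.5-fold lower and 0 higher in chalimus, against 51.6% and 10.1% of the 938. The share of lower contigs was thus near that of the 938. For adult female over chalimus the medians were 0.05 with CPM and 0.08 with TMM, and 0 of the 26 passed 1.5-fold in either direction with TMM, against 25.9% higher and 22.5% lower among the 938.

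For adult male over chalimus the medians were 0.03 with CPM and 0.21 with TMM, and with TMM 2 of the 26 were over 1.5-fold higher and 0 lower in male, against 19.6% and 24.2% of the 938. For adult female over adult male they were -0.04 and -0.19, and 0 passed 1.5-fold with TMM in either direction, against 35.9% higher and 27.3% lower in female among the 938. The rule used these same counts, so the low numbers follow from the choice of members. Among the 4 libraries other than copepodid, with TMM factors computed over those 4, 12 of the 26 contigs stayed within 1.5-fold, with ratios from 1.12 to 2.04 and a median of 1.53.

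Contig length, which the rule did not use, was recovered from the counts and the FPKM. The 26 contigs had a median length of 1923.5 nt and ran from 455 nt (GAZX01035928) and 625 nt (GAZX01016333) to 5015 nt (GAZX01038305) and 6027 nt (GAZX01021252). The median was 1826.5 nt for the 938 contigs and 939 nt for all contigs with a count in the 5 libraries. Over the bands of the 938 it was 2031 nt for ratios over 1.5 and up to 2, 1938 nt for over 2 and up to 4, and 1634.5 nt for over 4. The even-CPM contigs were therefore of ordinary length for abundant contigs, and no test was made. Their mean FPKM had a median of 66.2, against 107 for the 938. Over the same bands it was 62.1 for ratios over 1.5 and up to 2, 91.5 for over 2 and up to 4, and 260 for over 4. The nearest band was thus as low as the 26.

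The recount of the adults gave a check of the counting that the rule did not use. For 19 of the 26 contigs the count in the adult file of unstated sex was exactly the sum of the female and male counts. The other 7 differed, against a background of 29.0% of the 938, so the 26 were near the background in this respect. The largest difference, by counts and by percentage, was in GAZX01011931, with 29621 counts in the adult file against a sum of 29841, or -0.74%. By percentage GAZX01038305 followed, with 24338 against 24230 (0.45%). All 26 lay within 1%, as did 95.5% of the 938, so this too was near the background.

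For each of these 7 differences, the shortest run of adjacent identifiers that balanced it was searched for, up to 10 identifiers on either side. A sum of 0 was thus the criterion of the search. GAZX01038305 gained 108 counts in the recount and GAZX01038306 had 108 fewer. GAZX01021433 gained 60 while GAZX01021432 had 60 fewer, GAZX01022722 gained 26 while GAZX01022721 had 26 fewer, and GAZX01016524 gained 6 while GAZX01016525 had 6 fewer. GAZX01011931 had 220 fewer and GAZX01011928 had 37 fewer, while GAZX01011929 gained 239 and GAZX01011930 gained 18, a sum of 0. Such a run of at most 5 identifiers summing to 0 was found for all 7, and for 80.1% of the 272 contigs with a difference among the 938. With longer runs allowed, the search succeeded for 97.4% of the 272.

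The counts were also summed over each run, which adds the profiles of the neighbours whether or not they are separate transcripts. For GAZX01016524, GAZX01021433 and GAZX01038305 the summed CPM had ratios of 1.40, 1.47 and 1.43, close to those of the contigs alone. For GAZX01022722 the summed ratio was 1.496, against 1.38 alone. GAZX01011931 with its neighbours summed to 209 CPM in egg, 129 in copepodid, 177 in chalimus, 185 in adult female and 153 in adult male. That ratio of 1.62 is past the limit. Its neighbour GAZX01011929 had 106 CPM in egg and 16.6 in copepodid, and whether reads were divided between them was not tested.

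The remaining pair of the 7, GAZX01030661 (2912 nt) and GAZX01030663 (2749 nt), had nearly parallel profiles. GAZX01030661 had 133 CPM in egg, 111 in copepodid, 119 in chalimus, 120.4 in adult female and 148 in adult male. GAZX01030663 had 139 CPM in egg, 119.9 in copepodid, 127 in chalimus, 129.8 in adult female and 159 in adult male. GAZX01030663 was 1.05 to 1.08 times GAZX01030661 in every library. No other identifiers of the 26 lay within 10 of each other, and none were consecutive.

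GAZX01030664 (3283 nt) and GAZX01030665 (3446 nt), just outside the 26, were likewise lowest in copepodid and highest in adult male, with 139 and 134 CPM in egg, 108 and 101 in copepodid, 136 and 130.3 in chalimus, 114 and 107 in adult female and 163 and 152 in adult male. Unlike the pair among the 26, both were lower in adult female than in chalimus. Their ratios were 1.51 and 1.501, just past the limit. The lengths of GAZX01030663 and GAZX01030661 differed by 163 nt, as did those of GAZX01030664 and GAZX01030665, and the second pair was 534 nt longer than the first. In the recount the count of GAZX01030665 dropped by 365, and GAZX01030661, GAZX01030662, GAZX01030663 and GAZX01030664 gained 105, 2, 127 and 131, again a sum of 0. Summed over these 5 identifiers the CPM was 560.3 in egg, 458 in copepodid, 529 in chalimus, 481 in adult female and 635 in adult male, with a ratio of 1.39. Whether reads were shared between GAZX01030661 and GAZX01030663 was not tested, and both gained in the recount.

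**Figure D5:**
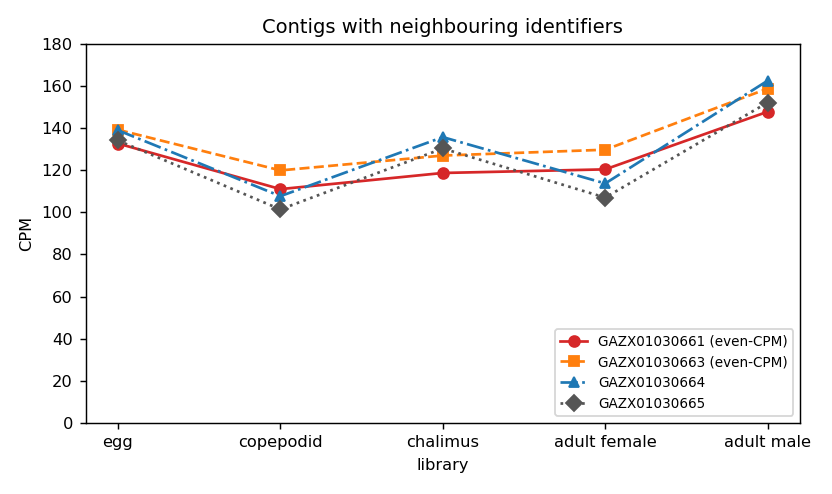
CPM in the 5 libraries of GAZX01030661 and GAZX01030663, which are among the 26 contigs, and of GAZX01030664 and GAZX01030665, which are just outside. All 4 lines are lowest in copepodid and highest in adult male, between 101 and 163 CPM.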

How the data were processed

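RNA-seq of whole-animal pools gave 6 files, 1 per group. The counts per contig were deposited by the authors without normalisation, per the file headers and values. The deposited FPKM divide each count by contig length and a library total and are rounded to 3 decimals. Aligner, assembler, counting tool and the handling of reads matching several contigs are not given in the sources used for this report, so counting intervals are approximate.

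CPM is the count over the file total. TMM factors (edgeR 4.0.16) and DESeq2 1.42.0 size factors were computed over the 5 libraries without the adult file, in R 4.3.3, and the rest in Python 3.11.15 with scipy 1.17.1. Highest-to-lowest ratios carry Clopper-Pearson 95% counting intervals. These are exact for a pair of libraries fixed in advance. The highest and lowest libraries were picked from the same counts, and the intervals do not allow for that choice. A count of 0 allows up to 3 counts, or 0.0201 to 0.0383 CPM. Lengths were recovered from counts and FPKM with the total that made them whole within 0.05 nt for 100% of the contigs over 300 FPKM. Of that total, 0.0342% to 1.08% was not in the file, most in copepodid.

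The rule, and the interval for a fixed pair of libraries, were run on simulated counts as a check of the code. The only noise in those counts was counting error, and the file totals were taken as the true scale. They therefore cannot show how the rule behaves under other scalings or with variation between pools. Members, limits and the rule for naming contigs were chosen with earlier results of these data known. The naming rule took the most even, most abundant, longest, shortest and borderline contigs, those even on all scales, those changed most in the recount and the extremes of each library. All 26 were then named, and the neighbouring identifiers and GAZX01037589 were picked after their values were seen. Alternatives were other scalings, limits and leaving out a library.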

Additional observations from a re-analysis of the deposited data

Results flagged for a closer look

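The adult file of unstated sex was flagged because the rule and the comparisons did not use it. Its total is that of female plus male, so it was taken as a recount of those adults and not as independent data. In it 7 of the 26 contigs had a count other than the sum of female and male, against 29.0% of the 938 contigs. No group held enough libraries to look for a library far from the others.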

How the results depend on the processing

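The rule passed 26 contigs (2.77% of 938). It passed 51 with TMM (4.95%, 4 of them among the 26), 40 with DESeq2 size factors (1 of the 26) and 48 (4.05%, 22 of the 26) with totals that leave out the 10 most abundant contigs of any library. With totals implied by the FPKM it passed 26 and without the contigs counted in copepodid alone 34, and both lists held all 26. A minimum of 20 CPM gave 51, a minimum of 100 CPM gave 13, and no minimum gave 113 (0.557% of 20302). A limit of 1.3-fold gave 3 (0.320%) and of 2-fold 158 (16.8%). Leaving out 1 library, which by construction keeps all 26, gave 45 (4.73%, without chalimus) to 150 (11.5%, without copepodid). TMM without copepodid, chosen after seeing the data, gave 137 (10.1%). The median length was 2371 nt for the TMM list, 1856.5 nt for the DESeq2 list, 1796 nt with 20 CPM and 2011.5 nt with 2-fold, against 1923.5 nt. The share with an adult count equal to female plus male was 73.1%, 68.6% to 80.4% for those lists, and 100% when a difference of 1% was allowed. Among the 938 contigs it was 71.0%, and 95.5% when a difference of 1% was allowed. The median log2 ratio of the 26 changed sign for copepodid over egg, at 0.77 with TMM and 0.91 with DESeq2 against -0.20 with CPM, and for chalimus over copepodid, at -0.65 and -0.68 against 0.08. It kept its sign for adult female over chalimus (0.08 and 0.12), adult male over chalimus (0.21 and 0.42) and adult female over adult male (-0.19 and -0.36). A scaling shifts every contig of a pair by the same amount, which sets these changes by construction. Why the number of contigs passing differed between scalings was not tested. No paired analysis was possible because each group holds 1 library. With 1 library per group, depth limits only the contigs at the edge of 1.5-fold, and the variation between pools of animals cannot be seen.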
